A study of Homo sapiens with 1 sample.

Results

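The human miRNAs from miR-4632 to miR-4804 were measured in the colorectal carcinoma cell line DLD-1 after transfection with a negative control plasmid (pLVX-NC). They were chosen by name alone, as every non-control entry of the array called hsa-miR- with a number in that range, arms and letters included. They comprised 280 of the 2549 human miRNAs on the array (10.98%) and covered 172 of the 173 numbers. The study set this control against cells overexpressing circLONP2, a circular RNA, and the overexpression array was not analysed here. The data therefore came from 1 array of 1 culture, hybridised with a Cy3-labelled sample and read in 1 colour. No second group or replicate array was analysed here, so no test between conditions could be made, and every error given is the spread between spots of the same array.

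A miRNA is cut from a hairpin precursor, first in the nucleus by Drosha with DGCR8 and then in the cytoplasm by Dicer. The resulting duplex has a 5p strand from the 5′ side of the hairpin and a 3p strand from its 3′ side. Usually one of them is kept by an Argonaute protein, where it guides silencing of mRNAs that pair with its seed, bases 2 to 8. miRNA numbers follow the order of registration, so numbers this high belong to miRNAs catalogued late, mostly from sequencing of small RNA. Several such precursors lie inside protein-coding genes and may be copied together with them.

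Mature sequences were found in RefSeq (GRCh38.p14) for 250 of the 280 miRNAs. Those of the brightest members that had one are shown from 5′ to 3′ with the seed in capitals, because the most intense signals of the range came from them.
miR-4647: gAAGAUGGugcugugcugaggaa
miR-4788: uUACGGACcagcuaagggaggc
miR-4698: uCAAAAUGuagaggaagacccca
miR-4721: uGAGGGCUccaggugacggugg
miR-4758-5p: gUGAGUGGgagccgguggggcug
miR-4778-5p: aAUUCUGUaaaggaagaagagg
miR-4667-5p: aCUGGGGAgcagaaggagaacc
miR-4669: uGUGUCCGggaaguggaggagg
No seed was shared among these 8 miRNAs. GGG occurred in 5 of the 8, in 74 of the 250 members with a sequence and in 662 of the 1998 other human miRNAs with one, when the strand as printed was searched. G made up 21.7% to 60.9% of their bases, with a median of 42.2%.

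The hairpins of the precursors on which the arm comparison turned are shown from 5′ to 3′, with the 5p arm and then the 3p arm in capitals and their positions on GRCh38.p14. miR-4667, miR-4758 and miR-4728 had a brighter 5p arm, miR-4687 had a brighter 3p arm, and miR-4793 had arms of like brightness.
MIR4667, chr9:35608094-35608159, plus strand: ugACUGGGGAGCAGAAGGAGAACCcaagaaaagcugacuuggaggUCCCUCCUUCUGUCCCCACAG
MIR4758, chr20:62332487-62332557, minus strand: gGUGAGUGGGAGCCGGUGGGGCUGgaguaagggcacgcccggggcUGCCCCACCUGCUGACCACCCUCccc
MIR4728, chr17:39726495-39726561, plus strand: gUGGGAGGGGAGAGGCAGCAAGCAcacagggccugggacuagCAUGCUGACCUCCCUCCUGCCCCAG
MIR4687, chr11:3856062-3856141, plus strand: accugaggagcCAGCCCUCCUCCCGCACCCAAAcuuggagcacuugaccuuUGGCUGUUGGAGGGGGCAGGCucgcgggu
MIR4793, chr3:48644194-48644280, minus strand: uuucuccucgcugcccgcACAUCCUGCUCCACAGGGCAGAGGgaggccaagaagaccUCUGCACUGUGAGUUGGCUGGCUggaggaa

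Each of the 280 miRNAs had 20 spots, divided between 2 probes (262 miRNAs) or 3 probes (18 miRNAs). Of these 5600 spots, 42.1% were well above background by the scanner software, against 45.3% of all human miRNA spots, and no spot was saturated. The software called 258 spots (4.61%) outliers, and these were not used. Brightness values are linear and background-subtracted. The log2 signal is the mean log2 brightness minus that of a reference, the 75th percentile of the array's detected probes, which had a brightness of 249. For 306 probes of detected members, replicate spots had a median SD of 0.15 (log2). Part of this spread followed position on the array. Spots in the first 46 columns of the array, which held 28.6% of the members' spots, fell below the other spots of their probe by a median of 0.17 (log2), and 163 of the 184 member probes with spots well above background on both sides were dimmer there. The dim side was seen in the data and not set in advance, and its cause was not tested. Of 9 epithelial miRNAs of colon, viewed because of the labelled cell type, 7 were detected, where 56.8% of all human miRNAs on the array were. Their summed brightness was 3326, of which miR-141-3p gave 3024, while miR-192-5p and miR-194-5p were not detected. Of 9 miRNAs typical of other cell types, 6 were detected with a summed brightness of 229, and miR-122-5p, miR-143-3p and miR-451a, which mark liver, smooth muscle and red cells, were not. The detected ones included miR-124-3p of neurons at 77.2, miR-126-3p of endothelium at 58.9 and miR-145-5p of smooth muscle at 37.0. The counts of detected miRNAs did not separate these lists, so the cell type was taken from the label. The part of other cells in these signals was not tested.

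About as many of the late-numbered miRNAs were detected as not. The software's flag called 149 of the 280 miRNAs detected (53.2%), beside 56.8% of all human miRNAs on the array. The share was 62.7% for miR-4417 to miR-4540, which were registered shortly before (89 of 142), and 49.2% for miR-1 to miR-999, which include most of the classical miRNAs (439 of 893). The range thus lay between these groups and close to the array as a whole. Entries named without an arm were detected in 46 of 70 cases (65.7%), 5p entries in 52 of 105 (49.5%) and 3p entries in 51 of 105 (48.6%). For all human miRNAs the shares of these kinds were 60.9%, 60.5% and 49.4%, so the 5p entries of the range were detected in a smaller share than 5p entries elsewhere, with no test made.

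The detected members spanned brightness values from near background to 3351. Their log2 signal had a median of −1.96, with quartiles of −3.70 and −0.38 and a range from −5.38 to 3.75. The median brightness was 66.4, against 62.8 for all detected human miRNAs, 137 for miR-4417 to miR-4540 and 47.4 for miR-1 to miR-999. The signal was below −4 in 23 of the 149 detected members, from −4 to −2 in 51, from −2 to 0 in 48, from 0 to 2 in 19 and above 2 in 8. Only 27 (18.1%) thus exceeded the reference percentile, compared with 19.96% of all detected human miRNAs. By kind, the median log2 signal of the detected members was −1.12 for entries with no arm, −1.59 for 5p and −3.11 for 3p entries. Over all detected human miRNAs these medians were −1.47, −1.85 and −2.99, in the same order.

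**Figure D1:**
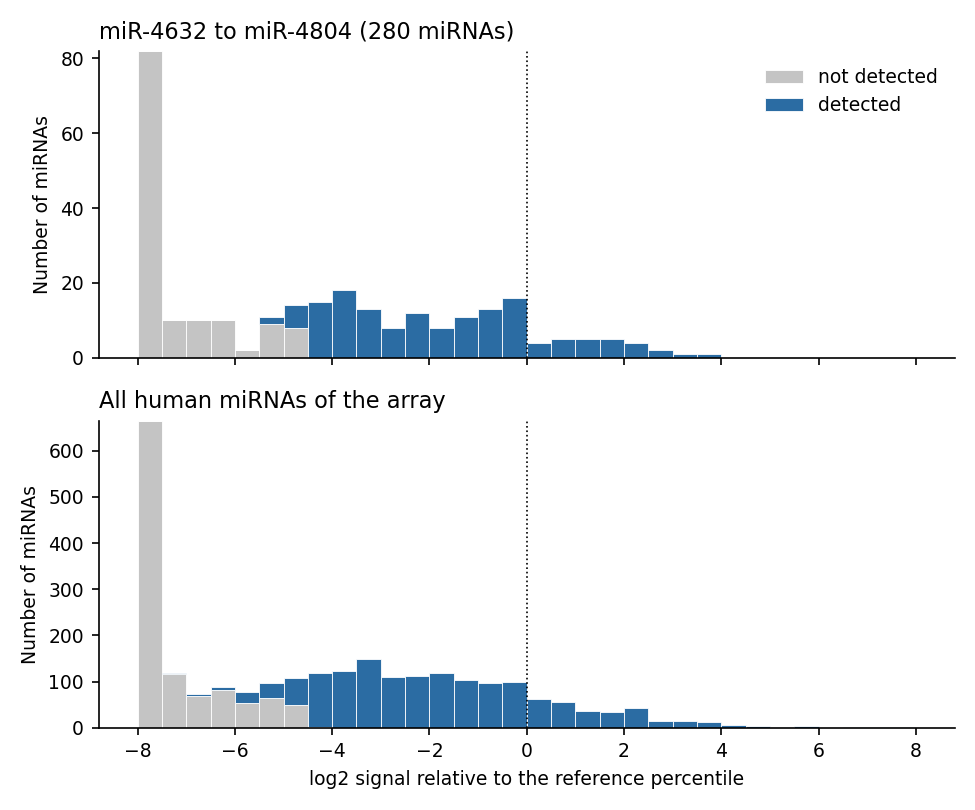
Histograms of the log2 signal (x axis, 0 being the reference percentile) for the 280 miRNAs (top) and all human miRNAs of the array (bottom), with detected miRNAs in blue and undetected ones in grey stacked below them. In both, the undetected miRNAs pile up at the lowest values, where brightness below 1 was set to 1, and the detected ones lie mostly between −5 and 0 with a tail to the right that ends at 3.75 for the late-numbered miRNAs.

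The limit between detected and undetected was not sharp. Of the detected members, 99 had every spot well above background and 9 had none. Among the 131 undetected members, 86 had a mean brightness under 1, but 16 had a higher log2 signal than the lowest detected one, and 7 a higher mean brightness. The 3 detected members with the lowest log2 signal were miR-4714-3p, miR-4781-5p and miR-4674. miR-4714-3p read 8.70 ± 7.67 (SD, n = 19 spots) with 2 spots well above background, and miR-4674 read 9.14 ± 4.38 (SD, n = 19) with none. miR-4781-5p read 21.7 ± 22.7 (SD, n = 20), because 1 probe had a mean of 42.7 and the other of 0.749. The 3 undetected members with the highest log2 signal were miR-4659b-3p at 10.4 ± 2.03, miR-4639-5p at 10.9 ± 3.82 and miR-4714-5p at 10.2 ± 3.26 (SD, n = 20 each), all with no spot well above background. Both arms of miR-4714, a hairpin within the span of the insulin-like growth factor receptor gene IGF1R, therefore lay at this limit, and the arm that was called detected had the lower mean. Of the 1000 negative control spots, 99% read 12.5 or less. The mean of the brightest probe exceeded this value in 148 of the 149 detected members, beside 1424 of the 1448 detected human miRNAs on the array. The members had already been chosen by the detection flag, and probe means were set against single spots, so this count is no separate check of detection.

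The 12 brightest members were ranked by log2 signal, a mean over probes, and miR-4728-5p, miR-4776-5p and miR-4741, which are not among them, had higher linear means than the last of the 12. miR-4647 stood first and was the 23rd brightest of all human miRNAs on the array. Its mean brightness was 3351 ± 150 (SD, n = 18) and its log2 signal 3.75. It lies on chromosome 6 (chr6:44254253-44254275, minus strand) within the span of SLC35B2, which encodes a Golgi transporter for the sulphate donor PAPS. It was followed by miR-4788, at 2068 ± 370 (SD, n = 20) and a log2 signal of 3.03, which lies in no protein-coding gene of the reference table, and by miR-4646-5p, at 1998 ± 383 (SD, n = 19) and 2.98. The SDs of the latter pair overlap but include the spread between the sides of the array, and both miRNAs lay far below miR-4647.

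Next came 5 miRNAs with brightness values between 1163 and 1481. miR-4800-5p read 1481 ± 220 (SD, n = 20), miR-4698 1410 ± 218 (SD, n = 19) and miR-4721 1393 ± 112 (SD, n = 19). These SDs overlap but include the spread between the sides of the array. Outside the dim first columns the values were 1645 ± 71.4 (n = 12), 1507 ± 71.3 (n = 15) and 1423 ± 85.5 (SD, n = 14). Within those columns they were 1234 ± 88.5 (n = 8), 1048 ± 202 (n = 4) and 1307 ± 142 (SD, n = 5). The order of miR-4800-5p and miR-4721 thus differed between the sides. miR-4698 lies in PCED1B on chromosome 12, and miR-4721 in TUFM on chromosome 16, the gene of the mitochondrial elongation factor Tu. miR-4758-5p, whose probes had means of 903 and 1526, read 1214 ± 324 (SD, n = 20), and miR-4778-5p read 1163 ± 44.1 (SD, n = 18). The former lies in LAMA5, which encodes a laminin chain of basement membranes, and the latter outside the protein-coding genes of the table.

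The remaining 4 of the 12 were miR-4667-5p in the protein kinase gene TESK1 (953 ± 188, SD, n = 20), miR-4697-5p (1163 ± 835, SD, n = 20), miR-4659b-5p (737 ± 95.6, SD, n = 20) and miR-4669 in the retinoid X receptor gene RXRA (721 ± 98.4, SD, n = 18). The wide SD of miR-4697-5p came from its probes, with means of 364 ± 38.5 and 1961 ± 226, so its place depended on the probe used. Much of the spread of several others lay between the sides of the array. For miR-4788 the 6 spots in the first 46 columns averaged 1532 and the other 14 spots 2298, and for miR-4646-5p the values were 1296 (4 spots) and 2185 (15 spots). All 12 were at 7.97 to 10.99 in the log2 values deposited after normalization. Of the 12, 7 were 5p entries, 5 had no arm in their name and none was a 3p entry. Of the 100 brightest human miRNAs 8 were members, and of the 20 brightest none, where members made up 10.98% of all human miRNAs on the array. The 280 miRNAs together held 5.92% of the summed signal of all human miRNAs, and these 12 held 52.1% of the signal of the detected members.

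**Figure D2:**
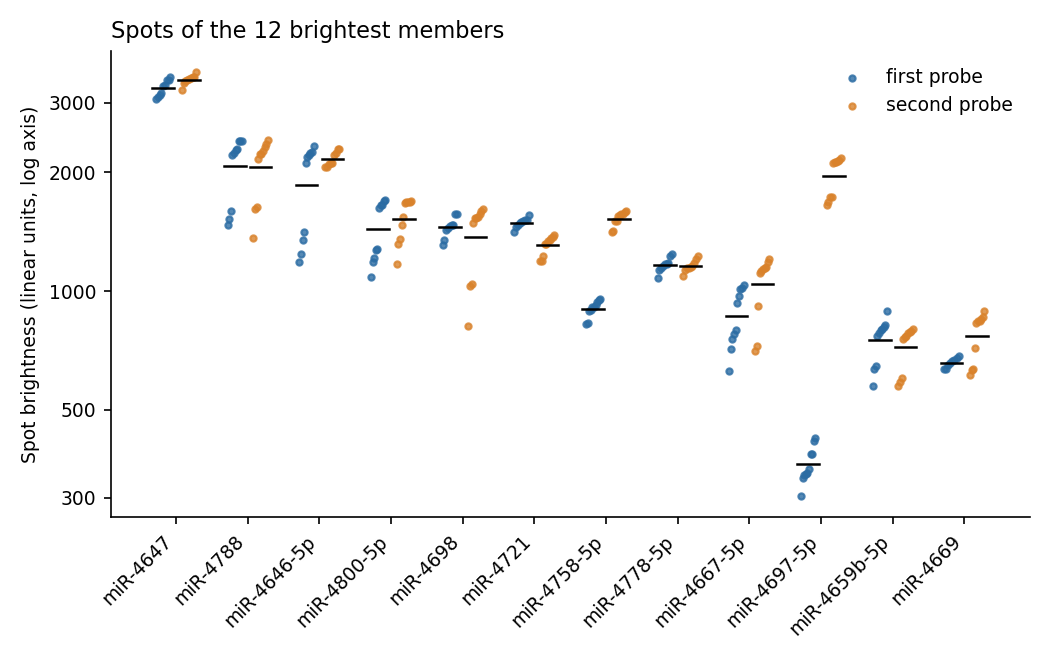
Brightness of single spots (y axis, linear units on a log axis) for the 12 brightest members in order of log2 signal, with the probes of each miRNA in blue and orange and the mean of each probe as a black bar. The probes coincide for miR-4778-5p and differ for miR-4697-5p (364 and 1961) and miR-4758-5p (903 and 1526). In miR-4788 and miR-4646-5p a group of dimmer spots lies apart from the rest.

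The study's supplementary list of miRNAs names the precursors of 2 members. miR-4636, in the semaphorin gene SEMA5A on chromosome 5, was detected at 135 ± 31.2 (SD, n = 20), all 20 spots being well above background, with a log2 signal of −0.91. miR-4730, in the endonuclease gene ENDOV on chromosome 17, was not detected and read 3.53 ± 1.63 (SD, n = 19), with no spot well above background. These members were thus on opposite sides of the detection limit in the control cells.

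Both arms of 105 precursors of the range were on the array. In 25 pairs (23.8%) both arms were detected, in 27 (25.7%) only the 5p arm, in 26 (24.8%) only the 3p arm, and in 27 (25.7%) neither. Over the 810 arm pairs of all human miRNAs the shares were 31.5%, 28.6%, 17.8% and 22.1%. The arms are read by different probes, and unequal binding to a probe and unequal amounts of the arms cannot be told apart on 1 array, so the differences described are in brightness.

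Among the 25 pairs with both arms detected, more were brighter in 5p than in 3p. The 5p arm was more than 2-fold brighter in 12 pairs (48.0%), where the share over all 255 such human pairs was 53.3%. The 3p arm was more than 2-fold brighter in 5 of the 25 pairs, beside 21.6% of all pairs, and 1 of these 5, miR-4802, turned when the brightest probe was used. These shares were near those of the array as a whole. The remaining 8 pairs lay within 2-fold. The median log2 difference, 5p minus 3p, was 0.40, and that of all 255 pairs was 1.34. With the brightest probe of each arm these medians were 1.19 and 1.17, so the gap between them depended on how probes were summarised. The 1.19 was the difference of miR-4802 itself, whose 5p probes had means of −2.44 and 107, so this shift rested in part on that pair. Normexp background correction gave 0.16 for the 25 pairs. With dim arms at the limit for probes well above background, the differences ranged from −5.23 to 6.09. The difference was larger than 2 standard errors computed from the spots in 23 of the 25 pairs, beside 244 of all 255 pairs. This error leaves out disagreement between probes.

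The 5 largest differences belonged to miR-4667, miR-4697, miR-4758, miR-4687 and miR-4728. For miR-4667 the 5p arm read 953 ± 188 (SD, n = 20) and the 3p arm 12.5 ± 1.79 (SD, n = 19), of which no spot was well above background. The 5p arm was at least 68.1-fold brighter, where the dim arm was set to the dimmest probe of the array well above background, at 13.7. miR-4758 read 1214 ± 324 (SD, n = 20) for 5p and 25.5 ± 2.82 (SD, n = 19) for 3p, a log2 difference of 5.53 ± 0.04 (SE). That error leaves out the gap between its 5p probes, with means of 903 and 1526. In miR-4697 the values were 1163 ± 835 (SD, n = 20) and 20.3 ± 12.3 (SD, n = 16), with a log2 difference of 5.67 ± 0.05 (SE), although the probes of each arm disagreed and 1 of the 3p probes, with a mean of 8.54, had no spot well above background.

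miR-4728 lies within the span of ERBB2, the gene of the receptor HER2. Its 5p arm read 741 ± 369 (SD, n = 20), its probes having means of 384 and 1097, and its 3p arm read 21.1 ± 2.42 (SD, n = 20), a log2 difference of 4.95 ± 0.04 (SE). miR-4687, within STIM1, the gene of an endoplasmic reticulum calcium sensor, ran the opposite way. Its 3p arm read 511 ± 61.1 (SD, n = 18) and its 5p arm 13.1 ± 2.68 (SD, n = 20), with 1 of the 5p spots well above background, so that the 3p arm was at least 37.5-fold brighter. The hairpins printed above show that in each of miR-4667, miR-4758, miR-4728 and miR-4687 the brighter arm was the G-rich strand. G made up 40.9%, 60.9%, 52.2% and 57.1% of the brighter arm, and 9.52%, 13.0%, 16% and 9.09% of the dimmer arm.

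The 3p arm was also brighter in miR-4740, at 261 ± 48.1 (SD, n = 18) against 23.9 ± 4.90 (SD, n = 18), and in miR-4701, at 224 ± 17.6 (SD, n = 20) against 28.5 ± 4.19 (SD, n = 20). Their log2 differences were −3.43 ± 0.07 and −2.99 ± 0.04 (SE). In miR-4740 the brighter arm had somewhat less G (31.8% against 36.4%), and in miR-4701 much more (55.0% against 9.09%). The pair with the smallest difference of mean log2 brightness was miR-4793, within the cadherin gene CELSR3, with 226 ± 29.6 (SD, n = 20) for 5p and 234 ± 46.5 (SD, n = 18) for 3p, a difference smaller than its error (−0.04 ± 0.08, SE). Its arms had 29.2% and 34.8% G.

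**Figure D3:**
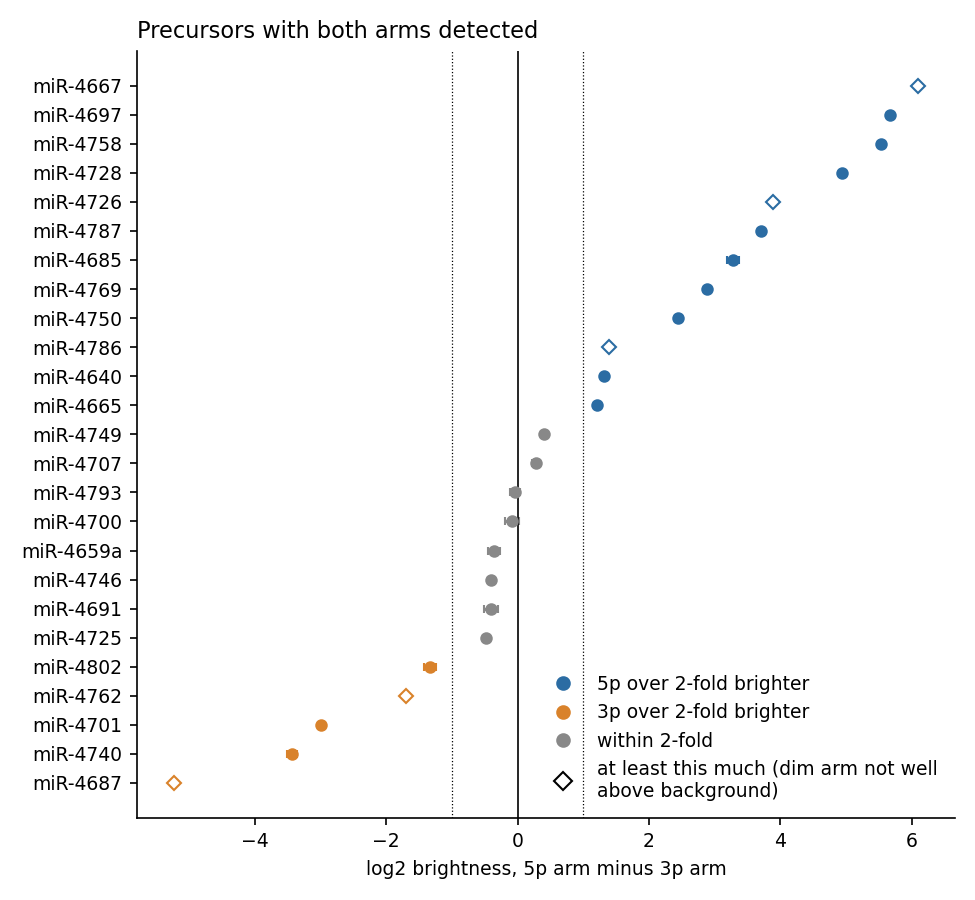
Log2 brightness of the 5p arm minus that of the 3p arm (x axis) for the 25 precursors with both arms detected, with the standard error from the spots and dotted lines at 2-fold. Open diamonds are lower bounds, where the dimmer arm was not well above background and was set to the limit. The 12 pairs at the top are over 2-fold brighter in 5p, up to at least 6.09 for miR-4667, and the 5 at the bottom over 2-fold brighter in 3p, down to at least −5.23 for miR-4687.

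In miR-4802 the direction depended on how probes were summarised. The difference was −1.33 with the mean over probes and 1.19 with the brightest probe of each arm, because its 5p probes had means of −2.44 and 107. For miR-4700, whose arms both read 19.2 to 19.3, the corresponding values were −0.09 ± 0.10 (SE) and 0.22. No other pair changed direction in this way.

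Single-arm detection was as common towards 3p as towards 5p in these precursors. For 43 of the 53 pairs with only 1 arm detected, a lower bound could be given, with a median of 6.20-fold and a highest of 143-fold. It reached 10-fold in 18 pairs, of which 10 were brighter in 5p and 8 in 3p, and the share over all human pairs was not computed. The 5p arm was at least 143-fold brighter in miR-4646 (1998 ± 383, SD, n = 19, against 8.98 ± 1.97, SD, n = 19) and at least 107-fold in miR-4800 (1481 ± 220, SD, n = 20, against 7.76 ± 4.64, SD, n = 20). It was at least 84.7-fold brighter in miR-4778, 53.3-fold in miR-4659b and 51.3-fold in miR-4776. On the 3p side miR-4755, in the gene of the RNA-binding protein RALY, led with 702 ± 168 (SD, n = 18) against −0.509 ± 1.94 (SD, n = 20), at least 49.8-fold. The sequences of the brighter arms not yet given are shown here, with seeds in capitals.
miR-4776-5p: gUGGACCAggauggcaagggcu
miR-4755-3p: aGCCAGGCucugaagggaaagu
The next pairs on the 3p side were miR-4713, with a 3p arm of 465 ± 40.02 and a 5p arm of 8.07 ± 3.10 (SD, n = 20 each), and miR-4653, with 454 ± 33.4 (SD, n = 19) and 2.85 ± 1.63 (SD, n = 18). Their 3p arms were at least 33.7-fold and 33.0-fold brighter.

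Brightness followed the G content of the mature strand. Among the 250 members with a sequence, 21 of 85 (24.7%) were detected where G was under 20% of the bases, 19 of 56 (33.9%) from 20% to 30%, 32 of 49 (65.3%) from 30% to 40% and 56 of 60 (93.3%) at 40% or more. All other human miRNAs had 32.8%, 48.9%, 67.4% and 94.1% detected in the same bands. The order was thus shared by the rest of the array, and the 2 lower bands were detected less often within the range, a difference with no test. Detected members had a median of 36.9% G and undetected ones 19.0%. Of 74 members with GGG, 60 were detected (81.1%), compared with 68 of 176 without it (38.6%), and for the other human miRNAs these shares were 84.7% and 44.2%.

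Across the 250 miRNAs, Pearson's r between G content and log2 signal was 0.64 and Spearman's rho 0.64. For the 128 detected ones they were 0.46 and 0.47. The corresponding r was −0.56 for U, −0.13 for C and −0.08 for A over all 250. These are descriptions across miRNAs of 1 array, which are not independent replicates, share one hybridisation and have base shares that sum to a whole. Within precursors the pattern was the same. The brighter arm had the higher G content in 15 of 19 pairs with both arms detected and unequal G (78.9%, beside 74.4% of all human pairs), and the detected arm had it in 37 of 46 pairs with 1 arm detected (80.4%, beside 81.8%). The part of G content in the arm differences was not tested. Of the bright members, miR-4698 departed most from this pattern, with 21.7% G and 43.5% A.

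**Figure D4:**
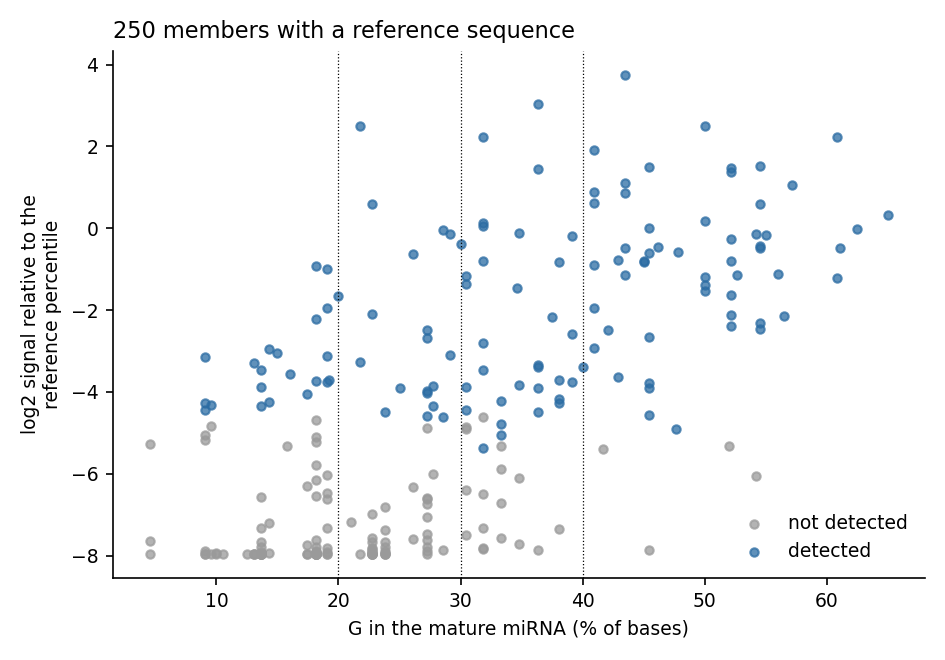
Share of G in the mature sequence (x axis, percent of bases) against the log2 signal (y axis, 0 being the reference percentile) for the 250 members with a reference sequence, detected ones in blue and undetected ones in grey, with dotted lines at 20%, 30% and 40% G. Almost all members at 40% G or more are detected (56 of 60), and most below 20% are not (21 of 85 detected).

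Seeds were seldom shared within the range. The 250 sequences had 243 different seeds, and 14 members formed 7 pairs with a common seed. The pairs are printed because their targets would be chosen by the same 7 bases, while the signals differed in several of them.
miR-4667-5p: aCUGGGGAgcagaaggagaacc
miR-4700-5p: uCUGGGGAugaggacagugugu
miR-4741: cGGGCUGUccggaggggucggcu
miR-4675: gGGGCUGUgauugaccagcagg
miR-4769-5p: gGUGGGAUggagagaagguaugag
miR-4654: uGUGGGAUcuggaggcaucugg
miR-4739: aAGGGAGGaggagcggaggggcccu
miR-4756-5p: cAGGGAGGcgcucacucucugcu
miR-4673: uCCAGGCAggagccggacugga
miR-4645-5p: aCCAGGCAagaaauauugu
miR-4749-5p: uGCGGGGAcaggccagggcauc
miR-4706: aGCGGGGAggaagugggcgcugcuu
miR-4799-3p: aCUGGCAUgcugcauuuauaua
miR-4720-5p: cCUGGCAUauuugguauaacuu
Both members were detected in 3 of these pairs. miR-4667-5p read 953 ± 188 and miR-4700-5p 19.2 ± 6.76 (SD, n = 20 each). miR-4741, in the DNA repair gene RBBP8, read 726 ± 142 (SD, n = 17) and miR-4675 16.6 ± 2.22 (SD, n = 20), so in both pairs the same seed occurred in a bright and a dim miRNA. miR-4769-5p and miR-4654 were closer, at 233 ± 61.5 and 169 ± 38.7 (SD, n = 20 each).

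In 3 further pairs a single member was detected. miR-4739 read 129 ± 53.8 (SD, n = 19), miR-4673 138 ± 28.4 (SD, n = 18) and miR-4749-5p 40.2 ± 7.94 (SD, n = 20). Their undetected partners read 1.13 ± 1.41 (miR-4756-5p, SD, n = 19), 0.164 ± 3.60 (miR-4645-5p, SD, n = 19) and 6.47 ± 1.73 (miR-4706, SD, n = 20). Neither miR-4799-3p nor miR-4720-5p was detected. A seed was shared with a human miRNA outside the range by 43 members, 21 of them detected. Detection was 53.2% over all members and 56.8% over all human miRNAs, and the rate of seed sharing over the array was not computed. Among the 20 brightest human miRNAs outside the range, 14 had a sequence, and the seed of 1 of these, miR-6785-5p, occurred in the range, in miR-4728-5p.
miR-4728-5p: uGGGAGGGgagaggcagcaagca
miR-6785-5p: uGGGAGGGcguggaugauggug
miR-6785-5p read 14400 ± 587 and miR-4728-5p 741 ± 369 (SD, n = 20 each).

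The late-numbered miRNAs lay mostly within protein-coding genes. Of the 250 with a position, 137 (54.8%) lay within the span of such a gene on the same strand, 21 (8.4%) on the opposite strand and 56 (22.4%) in none, while for 36 the strand of the gene was not given in the table. Of all other human miRNAs, 51.9% lay within a gene on the same strand and 33.3% in none. Within the range, 70 of 137 were detected on the same strand (51.1%), 12 of 21 on the opposite strand (57.1%), 29 of 56 outside genes (51.8%) and 17 of 36 where the strand was not given (47.2%). For the other human miRNAs these shares were 59.9%, 60.5%, 54.7% and 51.4%. The table gave gene spans only, so exons and introns were not told apart.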

How the data were processed

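Members and lists were chosen with earlier results of these data known. The deposited scanner output holds linear spot intensity from Agilent Feature Extraction 11.0.1.1, which had subtracted the local background and set the outlier, well-above-background and detection flags. A deposited value table holds log2 values, quantile normalized by the authors in GeneSpring GX; the arrays normalized together are not named in the sources used here. The labels describe direct dye ligation to the RNA, whereas the methods describe labelled cDNA.

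Control spots and outlier spots were left out and brightness below 1 was set to 1. Means of log2 values were taken by probe and then by miRNA, and the 75th percentile of the 2567 probes of detected miRNAs with at least 0.5 of their spots well above background was subtracted. SDs used probes with at least 3 spots. Where no probe of an arm had 0.5 of its spots well above background, an "at least" fold was given against the dimmest such probe. The number of arrays limits the precision. With 1 array there was no test and no p-value.

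The miRNAs named were the 12 brightest detected members, the 5 largest arm differences, the 3 dimmest detected and 3 brightest undetected members, miR-4636 and miR-4730, and members sharing a seed with each other or with the 20 brightest other human miRNAs; further arm pairs, miR-4776, miR-4755, miR-4713 and miR-4698 among them, were picked with their values known. Sequences and positions came from RefSeq tables (GRCh38.p14). Alternatives covered the detection criterion, background correction (normexp of limma 3.58.1 in R 4.3.3, offset 50, on median signals), scaling, outlier spots, probe summary, deposited values and, added after the data were seen, the dim columns. Calculations used Python 3.11.15, numpy 2.4.6, pandas 2.3.3 and matplotlib 3.10.9. The summaries were tested on simulated data in which every spot was detected and well above background. Those data held no outliers, probe disagreement or dim columns, so the brightness floor, the bounds and the detection limit were not tested.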

Additional observations from a re-analysis of the deposited data

How the results depend on the processing

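Of 31 alternative values for 5 results, 17 stayed close to the value reported and 14 moved. Close meant within the spot SD, or within 1.5 times for counts and for the spot SD itself. The counts and the spot SD could not change sign, and the sign of the median signal was largely set by the reference percentile. The median arm difference could change sign and did not. The number of detected members ranged from 113 to 184 over the 4 other criteria. The median log2 signal of detected members, −1.96, became −1.30 with normexp correction, −1.74 with the brightest probe, −1.64 with the software's total signal, −1.70 with the deposited values, −0.17 relative to all human probes and −4.49 over all members. The median arm difference, 0.40, became 0.16, 1.19, 0.92 and 0.82 under the first 4 of these and 0.95 over the 78 pairs with at least 1 arm detected. There, 69 pairs differed by more than 2-fold (39 brighter in 5p, 30 in 3p), against 17 of 25 where both arms were detected. Undetected arms read near background and no bound was applied here, so large differences were partly built into the count of 69. The same count over all human pairs was not made. With both detected, this count ranged from 12 to 18. The spot SD of 0.15 became 0.062 with normexp, whose offset narrows ratios, and 0.086 without the first 46 columns, which left the median signal at −1.92, the median arm difference at 0.44 and the count of pairs at 17. The causes of the shifts were not tested. No paired analysis was possible because only 1 array of 1 group was used. Signals close to background limit the dim arms, of which 5 in the 25 pairs were not well above it.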

Other observations

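Several names of the range carry a letter, which marks closely related precursors. miR-4659a had both arms detected, at 63.2 ± 15.8 (5p, SD, n = 18) and 79.0 ± 4.55 (3p, SD, n = 20). miR-4659b had a brighter 5p arm, at 737 ± 95.6 (SD, n = 20), and an undetected 3p arm, at 10.4 ± 2.03 (SD, n = 20). Different probes read these arms, so their levels were not compared.

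The probes of a miRNA mostly gave like values. They lay within 2-fold of each other in 126 of the 149 detected members and differed by more in 23 (15.4%), beside 24.7% of all detected human miRNAs with more than 1 probe. In 12 detected members 1 probe was well above background while another had no such spot. The widest gaps were in miR-4802-5p (−2.44 and 107), miR-4781-5p (0.749 and 42.7) and miR-4708-3p (5.15 and 54.7).

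Of the 93 3p members with a sequence, 9 (9.68%) ended in CAG, the last bases of many introns, and 3 of these were detected, against 40 of 84 with another end. Of the other human 3p miRNAs 18.7% ended in CAG, and 56 of these 129 were detected (43.4%), against 290 of 561 with another end (51.7%). The order was thus the same over the rest of the array, and the contrast within the range rested on 9 entries.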
